A study of Sus scrofa with 12 samples.

Results

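Nuclear genes of oxidative phosphorylation were examined in the jejunal mucosa of 12 pigs. The genes were those whose symbol in the platform annotation began with NDUFA, NDUFB, NDUFC, NDUFS, NDUFV, UQCR, COX4, COX5, COX6, COX7, COX8 or ATP5, or was CYC1 or CYCS. Of 13755 gene symbols, 57 met this description, carried by 84 probe sets, and each gene was read from the probe set with the highest mean over the 12 arrays. They comprised 25 subunits of complex I, 2 of complex III, cytochrome c, 8 subunits of complex IV, 14 of ATP synthase, and 7 assembly factors and other genes that share the symbol prefixes. Genes of the COX4 and COX8 families, CYC1, NDUFV1, NDUFV2 and the large UQCRC subunits were not analysed here.

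All pigs were 140 days old. High feed efficiency, that is, more growth for the feed eaten, was the label of 6 pigs, and low feed efficiency that of the other 6, with 3 males and 3 females in each group. Every pig had an identifier of its own and 1 array. Pigs are called high 1 to 6 and low 1 to 6 in what follows, numbers 1 to 3 being males and 4 to 6 females, and the numbers do not pair pigs. The sources used here do not give breed, diet or the way feed efficiency was scored.

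Oxidative phosphorylation takes place in the inner mitochondrial membrane. Complex I accepts electrons from NADH and complex II from succinate, both pass them through ubiquinone to complex III, cytochrome c carries them to complex IV, and complex IV reduces oxygen, while complexes I, III and IV pump the protons whose return flow drives ATP synthase. A few core subunits are encoded by the mitochondrial genome, and the other subunits, many of them among the genes described here, by the nucleus. In the jejunum, absorptive enterocytes spend much of this ATP on the sodium pump that drives nutrient uptake, and mitochondrial function of the gut and other tissues is a recurrent subject of work on feed efficiency.

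Values are log2 signals as the authors deposited them, on which a difference of 1 is a doubling. Array medians lay between 4.02 and 4.16, and array pairs correlated at 0.950 to 0.979 across probe sets. Probe sets with a mean above 2.29, the 25th percentile, were tested, and 56 of the 57 genes passed. ATP5H was the exception. Enterocyte markers were bright, with a mean of 10.3 ± 0.768 (SD, n = 6) in the high pigs and 10.6 ± 0.377 in the low ones. High 1 stood apart from the other pigs: its enterocyte markers averaged 8.78 against 10.4 to 10.8 in the rest of its group, and its gastric surface and gland markers 9.14 against 4.69 to 6.20 in the other 11 pigs. Counts for feed efficiency and for sex are therefore also given without it. Because the mucosa is a mixture, fewer cells of a type and less RNA per cell cannot be told apart in these data.

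Most of the respiratory chain genes had a lower mean in the high feed efficiency pigs, by small amounts, and none passed the test. The mean was lower in 47 of 56 genes and higher in 9, with a median difference of -0.13 log2 units, against -0.0072 over all probe sets tested, of which 51.6 percent were lower. With limma's test over all 35791 probe sets, sex being a term of the model, 0 of the 56 genes had an adjusted p under 0.05, and the smallest adjusted p among them was 0.630. The share of all probe sets called at that threshold was likewise 0 percent. At an unadjusted p under 0.05, 3 genes were lower in the high group (background 3.98 percent of probe sets) and 1 was higher (background 3.81 percent), so 3 of 56 is close to the share over the whole array. For 52 of 56 genes the 95% interval of the difference spanned 0. Without high 1, 43 of 56 genes were lower (52.2% of all probe sets), with a median of -0.14, and 10 genes were lower at an unadjusted p under 0.05 (6.08% of all probe sets), none of them past the adjusted threshold. That count of 3 rested on single pigs: it was 0 without high 2, 3 or 4 or low 2 or 5, 1 without high 6 or low 4, and 12 without high 5 (5.85% of all probe sets). The count of 1 higher was 0 without high 3, 4 or 6 or low 2, 5 or 6.

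**Figure D1:**
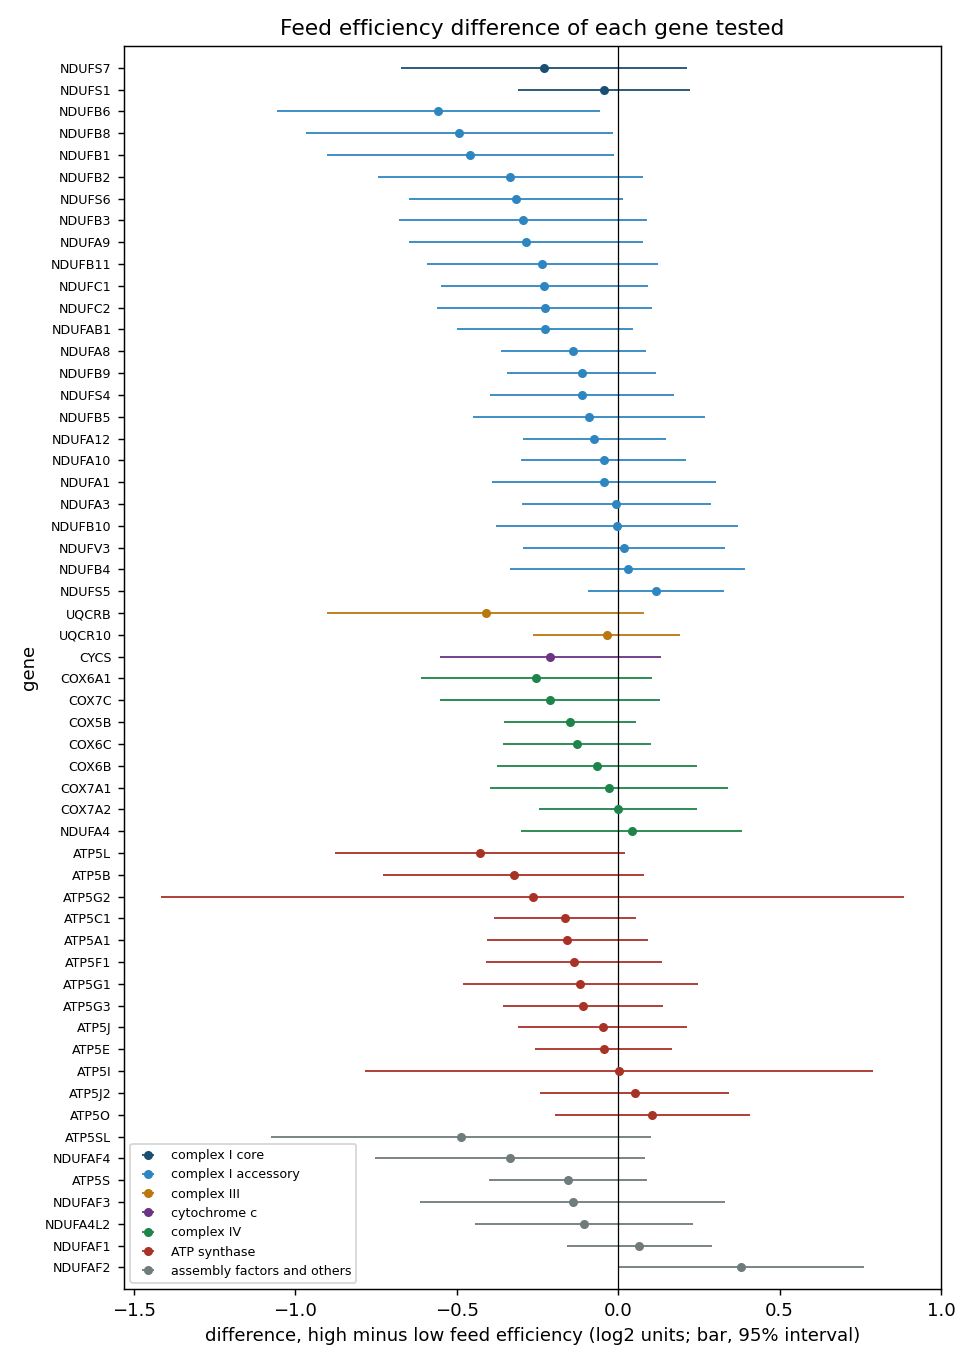
Difference in mean log2 signal, high minus low feed efficiency, for each of the 56 tested genes, grouped by respiratory complex; points are limma estimates with sex as a term and bars their 95% intervals (6 pigs against 6). Most points lie left of 0, and the bars of 52 genes cross it.

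Complex I holds the genes with the lowest unadjusted p. Its 25 measured genes were lower in the high group in 22 cases, with a median difference of -0.14. Of the 18 subunits of the membrane arm and its base 16 were lower, at a median of -0.18. The ubiquinone-reducing module and the mitochondrial acyl carrier protein, with 1 measured gene each, were lower as well. In the module that oxidises NADH 4 of 5 were lower at a median of -0.07. No test compared these parts. With the SD over the probe sets of each array, its spread, as a covariate, 11 of the 25 complex I genes were lower at a median of 0.012, and the differences of NDUFB6 and NDUFB8 became 0.02 and 0.03. Without high 1, 20 of 25 were lower at a median of -0.17.

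NDUFB6, an accessory subunit of the proton-pumping membrane arm, ran from 6.52 through a median of 7.33 to 8.23 in the high pigs and from 7.30 through 8.03 to 8.24 in the low pigs. The groups overlapped, with 5 of 6 high pigs below the low median and high 5 at the level of the highest low pigs. Its mean was 7.29 ± 0.631 (SD, n = 6) against 7.85 ± 0.418, a difference of -0.56 (SE 0.230; limma unadjusted p = 0.032, adjusted p = 0.630). NDUFB6 was also among the 4 genes with the largest spread between pigs of a group, at a within-group SD of 0.535.

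NDUFB8, another membrane arm accessory subunit whose protein is widely used as an indicator of assembled complex I, was measured at 8.11, 8.93 and 9.62 (lowest, median, highest) in the high pigs and at 8.78, 9.57 and 9.78 in the low pigs. Again 5 of 6 high pigs were below the low median. The difference was -0.49 (SE 0.219; limma unadjusted p = 0.044, adjusted p = 0.638). This value comes from a probe set whose name carries the Affymetrix mark for probes that match more than 1 transcript, and the gene's other 2 probe sets gave -0.09 and -0.05.

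NDUFB1, a small single-span subunit of the same arm, had values of 7.56, 8.03 and 8.71 in the high pigs and 8.07, 8.72 and 8.86 in the low pigs. Every high pig lay below the low median, although the ranges overlapped. Its difference was -0.46 (SE 0.204; limma unadjusted p = 0.044, adjusted p = 0.639).

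NDUFS6, a zinc-binding accessory subunit of the peripheral arm needed late in assembly, had a mean of 8.56 ± 0.367 in the high pigs and 8.88 ± 0.385 in the low ones, a difference of -0.31 (SE 0.153; limma adjusted p = 0.654). The 2 core subunits measured, which carry iron-sulphur clusters, differed by less. NDUFS7, which holds the cluster that hands electrons to ubiquinone, had means of 8.51 ± 0.461 and 8.74 ± 0.320, a difference of -0.23 (SE 0.204). NDUFS1, the largest core subunit of the NADH-oxidising module, had means of 7.71 ± 0.186 and 7.75 ± 0.160, a difference of -0.04 (SE 0.122), and its sign turned without high 1, to 0.03. NDUFAB1, the mitochondrial acyl carrier protein that also serves lipoic acid synthesis, differed by -0.23 (SE 0.125; limma unadjusted p = 0.095). The 3 complex I genes with a higher mean in the high group, NDUFS5, NDUFB4 and NDUFV3, lay between 0.02 and 0.12 with SEs of 0.0966 to 0.167. The NDUFB4 probe set matches more than 1 transcript, and the gene's other probe set gave -0.09 (SE 0.118).

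**Figure D2:**
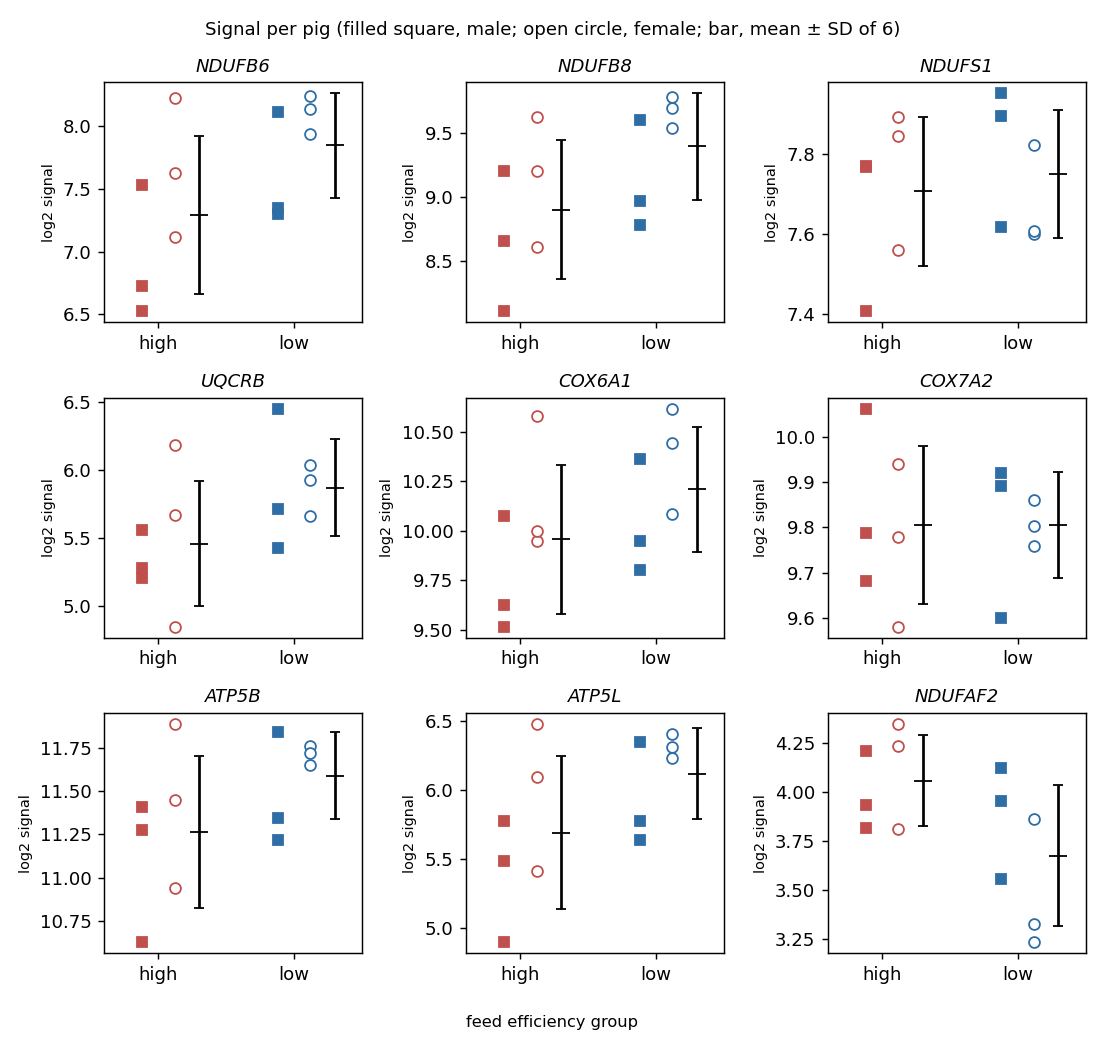
Log2 signal of each pig for genes named in the text, high and low feed efficiency side by side, with males and females marked and a bar for the mean ± SD of 6 pigs; the vertical axis differs between panels and does not start at 0. The high pigs spread further down than the low pigs for NDUFB6 and ATP5L, and for NDUFAF2 every high pig lies above the low median.

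Complex III was represented by 2 small subunits. UQCRB, the ubiquinone-binding protein of that complex, was measured at 4.85, 5.42 and 6.18 (lowest, median, highest) in the high pigs and 5.43, 5.82 and 6.45 in the low pigs. The groups overlapped over most of their range, with 5 of 6 high pigs below the low median, and the difference was -0.41 (SE 0.226; limma unadjusted p = 0.094, adjusted p = 0.680). UQCR10, the smallest subunit measured for this complex, had means of 9.16 ± 0.148 and 9.20 ± 0.226, a difference of -0.04 (SE 0.105). The UQCR10 probe set matches more than 1 transcript. For CYCS, the somatic cytochrome c, the probe set was dim, with means of 2.66 ± 0.322 and 2.87 ± 0.231 where 69 background probe sets had a median of 2.53. Its difference of -0.21 (SE 0.157) was -0.11 without high 1, and a difference so near the background is a poor measure of any change.

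Complex IV genes differed least by median: 7 of 8 were lower in the high group, at a median of -0.10, and the smallest unadjusted p was 0.139. Without high 1 the count was 6 of 8, and with array spread as a covariate 5 of 8 at a median of -0.04. COX5B, the zinc-binding subunit, had values of 7.47, 7.73 and 7.83 in the high pigs and 7.74, 7.80 and 7.99 in the low pigs. Its difference of -0.15 (SE 0.0938; limma adjusted p = 0.715) had the smallest SE among the 56 genes. COX6A1, the broadly expressed form of subunit VIa, differed by -0.25 (SE 0.165), COX7C by -0.21 (SE 0.157) and COX6C by -0.13 (SE 0.105). A second COX6C probe set, with a mean of 9.41 against 9.59 for the one chosen, had the opposite sign, at 0.12 (SE 0.203). COX6B, the subunit that faces the intermembrane space, differed by -0.07 (SE 0.142).

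Forms of a subunit known for restricted tissue use were read beside their common partner. COX7A1, the form of heart and skeletal muscle, had means of 6.70 ± 0.136 in the high pigs and 6.73 ± 0.379 in the low ones. COX7A2, the form found in most tissues, had means of 9.80 ± 0.174 and 9.81 ± 0.116, and the 95% interval of its difference ran from -0.24 to 0.24. Both probe sets match more than 1 transcript. NDUFA4, first assigned to complex I and now counted in complex IV, was dim, at 2.82 ± 0.272 and 2.77 ± 0.285. Its relative NDUFA4L2, known as a gene induced under low oxygen, had means of 4.63 ± 0.221 and 4.74 ± 0.279, a difference of -0.11 (SE 0.155).

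Among 13 tested ATP synthase genes 10 were lower in the high group, with a median of -0.12, against 9 without high 1 and 6, at a median of 0.02, with array spread as a covariate. All 4 genes of the catalytic F1 part were lower, at a median of -0.16, and 6 of 9 of the membrane part and stalk, at a median of -0.11. ATP5L, subunit g of the membrane part, where enzyme dimers form, was measured at 4.89, 5.63 and 6.48 (lowest, median, highest) in the high pigs and at 5.63, 6.27 and 6.41 in the low pigs. Low pigs clustered higher, and only high 5 exceeded their median, with the highest value of the 12 pigs. The difference was -0.43 (SE 0.206; limma unadjusted p = 0.060, adjusted p = 0.653). A second, dimmer probe set of ATP5L, with a mean of 3.57, had the opposite sign, at 0.11 (SE 0.356).

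ATP5B, the catalytic beta subunit, had values of 10.6, 11.3 and 11.9 in the high pigs and 11.2, 11.7 and 11.8 in the low pigs. The spread was wider in the high group (SD 0.436), whose highest pig exceeded every low pig. Its difference was -0.32 (SE 0.186; limma adjusted p = 0.691). ATP5A1, the alpha subunit that alternates with it, differed by -0.16 (SE 0.114), and ATP5C1, the gamma subunit that forms the rotating shaft, by -0.17 (SE 0.101). Both of the latter probe sets match more than 1 transcript.

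ATP5G1, ATP5G2 and ATP5G3 encode the same mature c subunit of the proton-driven ring with different import sequences. ATP5G1 differed by -0.12 (SE 0.167) and ATP5G3 by -0.11 (SE 0.114). ATP5G2 varied most between pigs of all 57 genes, with an SD of 1.29 among the high pigs and 0.857 among the low. High 2 was at 1.88, below every other pig, and the rest of the high group reached up to 5.33, against 3.29 to 5.60 in the low group. Its difference of -0.26 (SE 0.529) became 0.17 without high 2. ATP5I, subunit e of the membrane part, lay near the background with means of 2.33 in both groups and an SD of 0.865 in the high group.

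ATP5H, subunit d of the stalk, was the only gene of the 57 whose groups did not overlap. It was listed at 1.51 to 1.74 in the high pigs and 1.23 to 1.47 in the low pigs, below the median of the background probe sets in all 12. It did not pass the filter; with no filter its difference was 0.24 (SE 0.0922; limma unadjusted p = 0.024, adjusted p = 0.641). Groups did not overlap for 0.17 percent of tested probe sets in that direction and for 0.112 percent in the other, and a value at this level is no measure of the transcript.

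The 7 remaining genes comprise 4 complex I assembly factors and 3 genes named for a subunit family. NDUFAF2, which helps attach the NADH-oxidising module and leaves the finished complex, was measured at 3.81, 4.07 and 4.34 (lowest, median, highest) in the high pigs and at 3.23, 3.71 and 4.12 in the low pigs. The ranges overlapped, but all 6 high pigs lay above the low median. It was the gene with the largest higher mean, 4.06 ± 0.232 against 3.67 ± 0.359, a difference of 0.38 (SE 0.174; limma unadjusted p = 0.048, adjusted p = 0.639).

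NDUFAF4, an assembly factor of the ubiquinone-reducing module, had means of 4.11 ± 0.399 in the high pigs and 4.45 ± 0.504 in the low ones, a difference of -0.33 (SE 0.192). ATP5SL, named after ATP synthase but known in human cells for a part in complex I assembly, differed by -0.49 (SE 0.270; limma adjusted p = 0.683) with an SD of 0.579 between pigs of a group. ATP5S, coupling factor B, differed by -0.16 (SE 0.113). NDUFAF1, which acts on the membrane arm, differed by 0.07 (SE 0.103).

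Many of the genes, though not all, belong to the brightest probe sets of the array, and bright probe sets as a whole were lower in the high group. The top decile of probe sets by mean signal, above 7.56, held 30 of the 56 genes. Of all probe sets in that decile 70.5% were lower in the high group, at a median of -0.12, and of the 30 genes 28 were lower, at a median of -0.15. In the lowest decile 41.6% of all probe sets were lower, at a median of 0.04. The SD over the probe sets of an array, its spread, was 2.20 ± 0.0469 (n = 6) in the high pigs and 2.25 ± 0.0196 in the low ones. With that spread as a covariate 27 of 56 genes were lower, at a median of 0.0026, and after quantile normalization, which gives every array the same distribution, 35 of 56 were lower at a median of -0.07. The part of array spread in the lower means of the 47 genes was not tested beyond these fits.

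**Figure D3:**
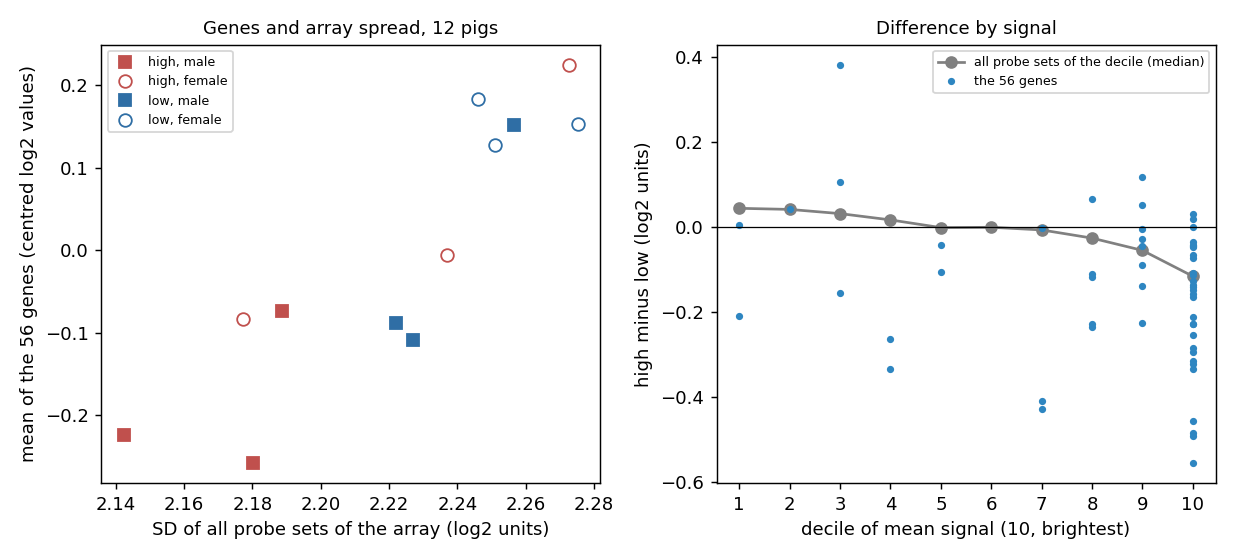
Mean of the 57 genes, ATP5H included (the axis label says 56), in each pig (centred log2) against the SD of all probe sets on that pig's array. Beside it are the high minus low difference of each of the 56 tested genes and the median over all probe sets in each decile of mean signal. High 2 and high 3, at an array SD of 2.18 and 2.14, sit lowest on the genes' mean, and the median over all probe sets passes from 0.04 in the dimmest decile to -0.12 in the brightest.

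Pigs differed from one another over the whole gene set. Centred on each gene's own mean, the 57 genes, ATP5H included, averaged -0.07, -0.26, -0.22, -0.08, 0.23 and -0.0056 in high 1 to high 6, and -0.09, 0.15, -0.11, 0.18, 0.15 and 0.13 in low 1 to low 6. High 2 and high 3, both males, were lowest, high 5, a female, was highest, and the groups overlapped, with 5 of 6 high pigs below the low median. High 2 and high 3 had the lowest signal of all pigs for 14 of the 57 genes each, and high 5 the highest for 11. Array spread was 2.19, 2.18, 2.14, 2.18, 2.27 and 2.24 in high 1 to high 6, and 2.22 to 2.28 in the low pigs. High 1 and high 4 had a spread close to that of high 2 and a genes' mean of -0.07 and -0.08, against -0.26 in high 2. T cell markers were lower in the high group for 6 of 6 genes, with a mean level over the list of 7.51 to 8.47 in high pigs and 8.01 to 8.38 in low pigs, a difference of -0.32 that was -0.24 without high 1. Skeletal or heart muscle markers were lower for 6 of 7, from 5.06 to 5.82 in high pigs and 5.46 to 5.77 in low pigs, a difference of -0.20 that was -0.29 without high 1. Enterocyte markers were lower for 10 of 11, with a group difference of -0.33 that was -0.03 without high 1. The largest differences among them, over all 12 pigs, were those of ANPEP at -0.62 (SE 0.239) and CDH17 at -0.61 (SE 0.156). The difference of the 57 genes' mean was -0.14 with and without high 1. The differences of the list means and of the 57 genes' mean carry no sex term, whereas those of ANPEP and CDH17 come from the model with sex. In other lists, fibroblast markers were higher in the high group for 5 of 6 genes and endothelium markers for 4 of 6. Gastric markers were higher for 4 of 5, and B and plasma cell markers for 2 of 4. Markers were lower for 4 of 6 genes of goblet cells, 3 of 4 of macrophages and 3 of 4 of pericytes. They were also lower for 6 of 8 of proliferating cells and 4 of 7 of smooth muscle. Of all probe sets 51.6 percent were lower, and 70.5% in the top decile of signal. No measured marker of these lists lay below the filter, and the part of any of these cell types in the genes' means was not tested.

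**Figure D4:**
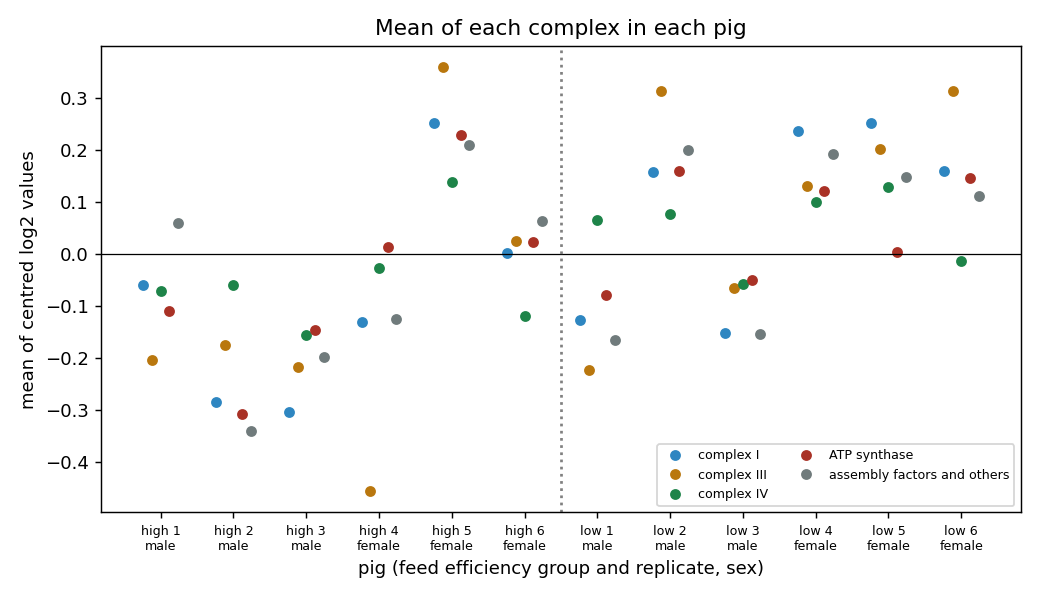
Mean centred log2 signal of the genes of each complex in each of the 12 pigs, the 6 high feed efficiency pigs left of the 6 low ones; 0 is the mean of the 12 pigs. Complex I spans the range from -0.30 in high 3 to 0.25 in high 5 and low 5, complex IV a narrower one from -0.16 to 0.14.

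Among males 45 of 56 genes had a lower mean in the 3 high pigs, at a median of -0.17 (47.7 percent of all probe sets were lower), and among females 46 of 56, at a median of -0.13 (53.9 percent of all). Single pigs moved these medians: the male one was -0.087 without low 2, and the female one -0.066 without high 4, -0.086 without high 6 and -0.21 without high 5. Without high 1 the male count was 42 of 56, at a median of -0.18. With array spread as a covariate 25 genes were lower in high males, at a median of 0.044, and 34 in high females, at a median of -0.04. Both sexes had a lower high mean for 37 genes, both a higher one for 2, and the signs differed for 17. The interaction of feed efficiency and sex, which tests whether the differences themselves differ, gave 0 genes with a limma adjusted p under 0.05, as for all probe sets (0 percent). At an unadjusted p under 0.05 it gave 1 gene, ATP5G2, against 6.69 percent of all probe sets. For ATP5G2 the high minus low difference was -1.32 in males and 0.79 in females, a difference between the sexes of -2.10 (SE 0.911; limma unadjusted p = 0.041, adjusted p = 0.743). Without high 2, 1 of 3 high males, the male difference was -0.60 and the interaction -1.39 (limma unadjusted p = 0.096). The 3 next, NDUFAF2, NDUFAF1 and UQCR10, had unadjusted p of 0.117 to 0.197.

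Most of the genes had a lower mean in males than in females, complex I genes foremost by count, and no gene passed the test. The mean was lower in males for 47 of 56 genes, at a median of -0.17, against 46.7 percent of all probe sets. With limma's test 0 of the 56 had an adjusted p under 0.05, the smallest being 0.480, while 0.0168 percent of all probe sets did. At an unadjusted p under 0.05, 13 genes were lower in males, where 4.66 percent of all probe sets were, and 0 were higher, where 4.6 percent were. Complex I accounted for 9 of the 13, with 23 of its 25 genes lower in males at a median of -0.26. In complex IV 5 of 8 were lower at a median of -0.06. Without high 1, 44 of 56 genes were lower in males and 19 were so at an unadjusted p under 0.05 (7.53% of all probe sets). The count of 13 was 6 without high 5 (2.90% of all probe sets) or low 1 (3.37%), and 7 without high 2 (3.77%), high 3 (3.33%) or low 3 (3.94%). It was 8 without low 4 (4.08%) or low 5 (3.96%) and 9 without high 6 (3.88%). It rose to 14 without low 6 (4.39%), 15 without high 4 (6.86%) and 18 without low 2 (5.87%).

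NDUFS6 had the smallest p for sex, with a mean of 8.46 ± 0.248 (SD, n = 6) in males and 8.98 ± 0.345 in females. The difference, male minus female, was -0.52 (SE 0.153; limma unadjusted p = 0.0051, adjusted p = 0.480). NDUFAB1 followed with 6.77 ± 0.229 in males and 7.17 ± 0.211 in females, a difference of -0.40 (SE 0.125). NDUFS4, an accessory subunit of the peripheral arm whose loss causes Leigh syndrome in people, had 6.07 ± 0.202 and 6.46 ± 0.207, a difference of -0.40 (SE 0.131). NDUFAF4 had a mean of 4.56 ± 0.319 in females, and males were lower by 0.57 (SE 0.192). The ranges of males and females overlapped for all 4 genes, and their adjusted p lay between 0.480 and 0.483.

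Bright probe sets as a whole were also lower in males. Of all probe sets in the top decile of signal 69.2% were lower in males, at a median of -0.13, and of the 30 genes there 28 were, at a median of -0.24. Array spread averaged 2.20 in males and 2.24 in females. A lower mean both in high pigs and in males was found for 41 genes. Both contrasts use the same 12 pigs. With array spread as a covariate 41 of 56 genes were lower in males at a median of -0.07, 1 of them at an unadjusted p under 0.05 (1.74% of all probe sets). After quantile normalization 40 of 56 were lower at a median of -0.08, 8 of them at that threshold (4.20% of all probe sets). Both settings thus reduced the median of -0.17 without a change of sign.

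**Figure D5:**
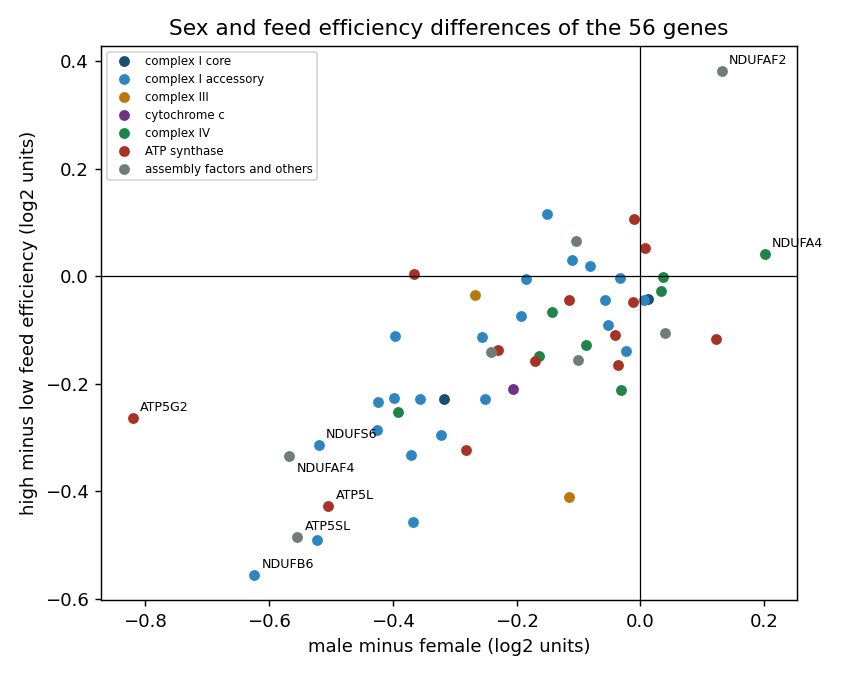
Difference male minus female against difference high minus low feed efficiency for the 56 genes (log2 units), coloured by complex. The area below 0 on both axes holds 41 genes, and both differences come from the same 12 pigs.

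Many of the genes went up and down together from pig to pig. Over the 12 pigs the median Pearson correlation of the 1540 pairs of genes was 0.25, with 69.9% of pairs above 0, where pairs of all named genes had a median of 0.0066. It was 0.31 within complex I, 0.28 between complex I and ATP synthase, 0.18 within ATP synthase and -0.01 within complex IV. Taken as deviations from the 4 means of sex and group, the median over all pairs was 0.17, and without high 5 and low 4 it was 0.23. These are descriptions: the pigs share array spread and tissue makeup as well as groups. Pairs of other genes of similar signal were not examined, and the share of all named pairs above 0 is not given here. The median of 0.25 and the 69.9% therefore cannot be read as particular to these genes.

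Set against the mean of the other 55 genes, 19 had a correlation above 0.8 over the 12 pigs. The share of other probe sets of similar signal that reach 0.8 with such a mean is not given here, so the 19 cannot be read as particular to these genes. They included 12 of 25 complex I genes, 4 of 13 ATP synthase genes (ATP5A1, ATP5B, ATP5F1 and ATP5L) and 1 of 8 complex IV genes, COX6A1, at 0.93. NDUFB6 was highest at 0.96. Another 11 genes were below 0, with NDUFA4 at -0.54 and the assembly factor NDUFAF2 at -0.61 lowest.

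More than 1 probe set was available for 19 of the 57 genes, and 22 further probe sets of 15 genes passed the filter. Of these 15 had the sign of the one chosen and 7 the opposite sign. At an unadjusted p under 0.05 there were 2, both lower in the high group. For NDUFS7 another probe set gave -0.59 against -0.23 for the one chosen. For ATP5E, the epsilon subunit of the F1 part, a probe set that matches more than 1 transcript gave -0.62, another 0.25 and the one chosen -0.04. Of the chosen probe sets of the 57 genes, 8 match more than 1 transcript by their names.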

How the data were processed

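Total RNA of jejunal mucosa from 12 pigs was hybridised to 1-colour Affymetrix Snowball arrays, 1 per pig, per the labels' protocols. The log2 values of each probe set are those that the authors deposited. GCOS (version 1.1.1) is named by the submitters' processing notes; for background correction, probe summarization and normalization the method was not given in the sources used here. Those deposited values were used unchanged, and 0 columns belonged to other samples.

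Of 47845 probe sets 123 controls were left out, and a single gene symbol was annotated for 26426 of the remaining 47722; the platform's annotation can be old and was used as given. Symbols were the only identifiers, so neither coordinates nor sequences are given. The 35791 probe sets with a mean above the 25th percentile (2.29) were tested with limma 3.58.1 in R 4.3.3, with Benjamini-Hochberg adjustment over all of them. The additive model held group and sex and left 9 residual degrees of freedom; fitting the 4 sex-by-group means left 8 and gave the interaction and within-sex differences. Precision is limited by the number of arrays, with a median SE of 0.169 log2 units. The fit was tested on simulated data with 50 changed probe sets at each size. At an adjusted p under 0.05 it recovered 12% of changes of 0.5 log2 units, 54% of 1, 90% of 1.5 and 88% of 2. It also called 9 unchanged probe sets.

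The genes and lists were chosen with earlier results of these data known. Named were, per complex, the 4 genes with the smallest unadjusted p; the 4 smallest for sex and for the interaction; isoforms with restricted tissue use and their partners; genes whose groups did not overlap, that spread most or that failed the filter; and, in other lists, the 2 smallest p. NDUFS5, NDUFB4, NDUFV3, ATP5E, ATP5F1 and NDUFA3 were named after their values were seen. Alternatives were other scalings, filters, priors, weights, probe set choices and leaving out each pig; the counts at an unadjusted p, the counts without high 1 by complex and sex, and ATP5G2 without high 2 were added after seeing the data.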

Additional observations from a re-analysis of the deposited data

Results flagged for a closer look

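Among 114 groups of 6 values examined, 57 genes in the high and in the low pigs, 3 held a pig that stood apart by Dixon's criterion, which sets the gap to the nearest pig against the group's range. Chance alone gives about 1 in 20. NDUFA3, a small accessory subunit of the membrane arm of complex I, was lowest in low 1 at 7.08, with the next low pig at 7.41. ATP5F1, subunit b of the ATP synthase stalk, was highest in high 5 at 9.99, with the next high pig at 9.44. NDUFA4L2 was highest in high 1 at 5.05, with the next high pig at 4.65, and high 1 is the pig whose enterocyte and gastric markers differed from the others.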

How the results depend on the processing

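No paired analysis was possible because the replicate numbers were given in accession order and do not pair pigs. No gene passed the adjusted threshold for feed efficiency, sex or their interaction under any alternative run. The 47 genes lower in high feed efficiency numbered 43 to 48 with single pigs left out and 27 with array spread as a covariate. That covariate also moved the medians of complex I accessory subunits to 0.012, of core subunits to 0.022, of ATP synthase to 0.021, of other complex I assembly to 0.00032, of import and structure to 0.037, of complex III to 0.064, of assembly factors and others to 0.092, of males alone to 0.044, of the regulators to 0.039 and of the transporters to -0.018, and turned NDUFS7 (0.16), NDUFB6 (0.023), NDUFB8 (0.033), UQCRB (0.15), COX6A1 (0.083), COX6C (0.0039), ATP5L (0.13), ATP5B (0.15), ATP5SL (0.12), NDUFAB1 (0.046), NDUFS4 (0.083), ATP5G2 (0.021), COX6B (0.14), ATP5G1 (0.075), NDUFA4 (-0.12) and ATP5I (-0.69). The median sex difference of -0.17 was -0.071 with that covariate and -0.083 after quantile normalization, which also moved the median of complex IV to -9.98e-05 and turned NDUFS1 (0.032), UQCR10 (0.10), COX6C (0.031), COX6B (0.059), COX7A1 (0.0061), COX7A2 (0.15), ATP5G3 (0.0069), NDUFA4 (-0.0063) and ATP5I (-0.050). Array weights turned NDUFS1 (0.016), COX7A2 (0.0063) and ATP5I (-0.057), scaling to the 75th percentile turned COX7A2 (0.0069), and the mean of a gene's probe sets turned COX7A1 (0.20). The count of genes lower at an unadjusted p under 0.05 was 3, but 1 after quantile normalization, 0 with array spread, 8 with array weights and 0 without sex; the count higher was 1, but 0 with quantile normalization, array spread, array weights, the 50th percentile filter, an intensity trend or assembly factors left out, and 2 with no filter. With single pigs left out these counts ran from 0 to 12 and from 0 to 1, and differences that turned ran from -0.085 to 0.026 for NDUFS1, -0.074 to 0.012 for UQCR10, -0.54 to 0.17 for ATP5G2, -0.13 to 0.017 for COX6B, -0.16 to 0.068 for COX7A1, -0.053 to 0.045 for COX7A2, -0.029 to 0.12 for NDUFA4, -0.19 to 0.0059 for ATP5G1 and -0.29 to 0.26 for ATP5I. The cause was not tested. Dim probe sets (CYCS, NDUFA4, ATP5I, ATP5H) lie near or below the background and are a poor measure of any change.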

Other observations

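Genes that work beside the respiratory chain were examined from lists of the same pathway, and none passed limma's adjusted threshold for feed efficiency. All 3 measured genes of complex II, which feeds electrons from succinate, had a lower mean in the high pigs, at a median of -0.19, with SDHD, a membrane anchor, at -0.34 (SE 0.175) and SDHA, the flavoprotein, at -0.19 (SE 0.104). Of 8 carriers and porins that move ADP, phosphate and ATP, 7 were lower at a median of -0.27. The outer membrane porin VDAC3 had means of 9.60 ± 0.303 (SD, n = 6) in the high pigs and 9.94 ± 0.0973 in the low ones, a difference of -0.33 (SE 0.133), and VDAC1 differed by -0.35 (SE 0.161). The other 5 tested complex I assembly factors were all lower, at a median of -0.16, with DNAJC30 at -0.33 (SE 0.138) and TMEM126A at -0.52 (SE 0.277). Assembly factors of complex III, complex IV and ATP synthase were lower in only 4 of 11 cases, at a median of 0.02, with LRPPRC, which stabilises mitochondrial messengers, at -0.22 (SE 0.200) and TMEM70 at -0.16 (SE 0.141). The difference between these lists was not tested.

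Of 16 regulators of mitochondrial gene expression 11 were lower in the high group, at a median of -0.16. ESRRB, a nuclear receptor, differed by -0.37 (SE 0.133), whereas POLRMT, the mitochondrial RNA polymerase, was higher by 0.53 (SE 0.196), with means of 5.28 ± 0.310 and 4.75 ± 0.473. Import and structure genes were lower in 11 of 14 cases at a median of -0.10, with CHCHD6, a cristae organiser, at 0.47 (SE 0.229) and TIMM50, an import receptor, at -0.44 (SE 0.217). Uncoupling and alternative electron entry genes were lower in 6 of 11 cases at a median of -0.0099, with GPD2, the glycerol phosphate shuttle enzyme, at -0.57 (SE 0.215) and SQRDL, a sulphide oxidase, at -0.52 (SE 0.266). With array spread as a covariate the medians were -0.08 for complex II, -0.018 for carriers and porins, 0.039 for regulators and 0.037 for import and structure. With single pigs left out, the median of the other complex I assembly factors ran from -0.24 to -0.09, that of import and structure from -0.16 to -0.059, that of uncoupling and alternative entry from -0.061 to 0.025, and that of the remaining assembly factors from -0.042 to 0.096. Without high 1, 3 of 3 complex II genes, 6 of 8 carriers and porins and 11 of 16 regulators were lower. Genes of the mitochondrial genome were not analysed here.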
